A study of Mus musculus with 468 samples.

Results

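The Slc25 genes encode the mitochondrial carriers, a family of membrane proteins that pass phosphate, nucleotides, carboxylic acids, amino acids, acylcarnitines and cofactors across the inner membrane of the mitochondrion. They were followed in adipose RNA of Diversity Outbred mice, which descend from several inbred founder strains and carry a mixture of their genomes. All mice received a high-fat, high-sugar (HFHS) diet with 45 percent fat, and each mouse gave 1 library, so all libraries form 1 group and the comparisons are relations between transcripts across mice. The labels give no sex, age, generation or fat depot, and no mouse on another diet was analysed here. Every gene whose symbol begins with Slc25a and a digit was taken, which gave 45 of the 23180 genes in the deposited counts, none of them named as a pseudogene. Of these, 44 were among the 18380 genes that passed a filter of 10 or more counts in 50% or more of the libraries. Slc25a2, an ornithine carrier, did not pass. The carriers lay on 19 chromosomes, and 23 of the 45 overlap other annotated genes, which makes the division of reads between them uncertain.

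The libraries held between 35.3 M and 137.8 M counts. With 1 library per mouse, the spread between libraries holds differences between animals and the error of the assay together. Counts from Y chromosome genes were present in 51.5% of the libraries and absent from 48.5%, and relations are given within these 2 sets because their levels of Ucp1 cover different ranges. Ucp1 ranged from 0.216 to 4514 CPM (counts scaled to a common library total, median 448.2) in the set without Y chromosome counts and from 0.0573 to 85.7 CPM (median 3.02) in those with them. Markers of fat cells summed to between 8020 and 29680 CPM (median 20638) and macrophage markers to between 245.8 and 4616 CPM (median 816). Summed levels of muscle markers reached 7413 CPM (median 30.95) and of liver markers 5997 CPM (median 30.8). In bulk tissue, fewer cells of a type and less RNA per cell cannot be told apart.

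Oxidation of fuels in the mitochondrial matrix depends on these carriers, since the inner membrane lets few charged molecules through by itself. In brown and beige fat cells the uncoupling protein Ucp1, itself a relative of the carriers, dissipates the proton gradient as heat, and fatty acids enter the matrix as acylcarnitines. In white fat cells, export of citrate from the matrix supplies carbon for fatty acid synthesis in the cytosol. Each carrier was therefore related to 3 transcripts: Ucp1 for thermogenic fat cells, Adipoq (adiponectin) for fat cells in general, and Adgre1 (F4/80) for macrophages.

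RefSeq promoter windows on GRCm38.p6, from 250 bases before to 50 after each listed start of a gene, were found for 35 of the 45 carriers, and some genes have several. A gene counted once if any of its windows held a motif. The windows were searched on both strands for the spelled motifs of 4 factors tied to respiration or cyclic AMP. CCGGAAG, the motif of the GA-binding protein, stood in 6 carriers (Slc25a3, Slc25a4, Slc25a17, Slc25a20, Slc25a25 and Slc25a38), that is 17.1% of the carriers with a window against 9.93% of 27025 genes. The cyclic AMP response element TGACGTCA stood in 2 (Slc25a25 and Slc25a36; 5.71% against 2.03%) and the motif of the nuclear respiratory factor NRF1 in 2 (Slc25a3 and Slc25a31; 5.71% against 5.19%). The estrogen-related receptor motif TNAAGGTCA was in 0 of the carrier windows (1.43% of all genes). Slc25a25 has several windows: its CCGGAAG lies at the outermost of these starts (window chr2:32451421-32451720), and its TGACGTCA at another start inside the gene. These shares are a description of the windows and not of binding. The 250 bases before the start are shown for 3 carriers that hold CCGGAAG and rose with Ucp1 in the libraries without Y chromosome counts. They are also shown, at the inner start, for Slc25a25, which stood apart in a single mouse described further on. Capitals mark the motif matches, read 5′ to 3′ on the strand of the gene.
Slc25a3, chr10:91123968-91124217, minus strand: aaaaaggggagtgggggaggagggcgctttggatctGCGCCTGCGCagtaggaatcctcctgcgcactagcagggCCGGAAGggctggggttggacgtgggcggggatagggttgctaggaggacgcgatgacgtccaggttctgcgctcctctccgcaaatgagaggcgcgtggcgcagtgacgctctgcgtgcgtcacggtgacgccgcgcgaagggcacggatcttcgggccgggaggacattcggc
Slc25a4, chr8:46211063-46211312, minus strand: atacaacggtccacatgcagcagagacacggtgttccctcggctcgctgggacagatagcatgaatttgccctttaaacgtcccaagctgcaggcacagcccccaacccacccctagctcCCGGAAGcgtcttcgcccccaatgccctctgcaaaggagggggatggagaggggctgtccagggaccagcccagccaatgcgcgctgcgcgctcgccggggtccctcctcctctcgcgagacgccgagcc
Slc25a20, chr9:108661886-108662135, plus strand: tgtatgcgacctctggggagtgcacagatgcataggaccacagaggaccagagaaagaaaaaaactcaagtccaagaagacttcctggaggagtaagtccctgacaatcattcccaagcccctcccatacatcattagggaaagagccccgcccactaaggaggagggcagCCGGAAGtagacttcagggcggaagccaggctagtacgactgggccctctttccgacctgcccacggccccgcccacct
Slc25a25, chr2:32424067-32424316, minus strand: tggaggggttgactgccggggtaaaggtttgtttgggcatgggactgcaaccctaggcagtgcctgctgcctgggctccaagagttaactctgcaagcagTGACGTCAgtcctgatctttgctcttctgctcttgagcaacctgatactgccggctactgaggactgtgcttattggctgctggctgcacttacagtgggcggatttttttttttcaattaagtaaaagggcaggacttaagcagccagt

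The carriers of energy and carboxylate metabolism had the highest levels. Per kilobase of transcript, the median carrier stood at 5.45 CPM per kb against 2.55 for all genes, and 28 of the 44 carriers were above that value. Slc25a1, the citrate carrier, led with a median of 155.5 CPM per kb. Its level ran from 115.6 CPM in the lowest library through a median of 336.5 to 1503 in the highest. The ADP/ATP carriers followed: Slc25a5 had a median of 129.7 CPM per kb and Slc25a4, the form of heart and muscle, 74.3. Slc25a10, the dicarboxylate carrier, stood at 60 and Slc25a3, which brings phosphate to the ATP synthase, at 57.8. In the median library, the 5 carriers with the highest CPM of that library made up 48.5% of the summed carrier level. This sum ranged from 1750 to 6548 CPM (median 2601). At the low end, Slc25a31, the ADP/ATP carrier of germ cells, had a median of 0.076 CPM per kb and no counts in 34 libraries. Slc25a21, the oxoadipate carrier, stood at 0.054 and Slc25a2 at 0.050 CPM per kb.

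**Figure D1:**
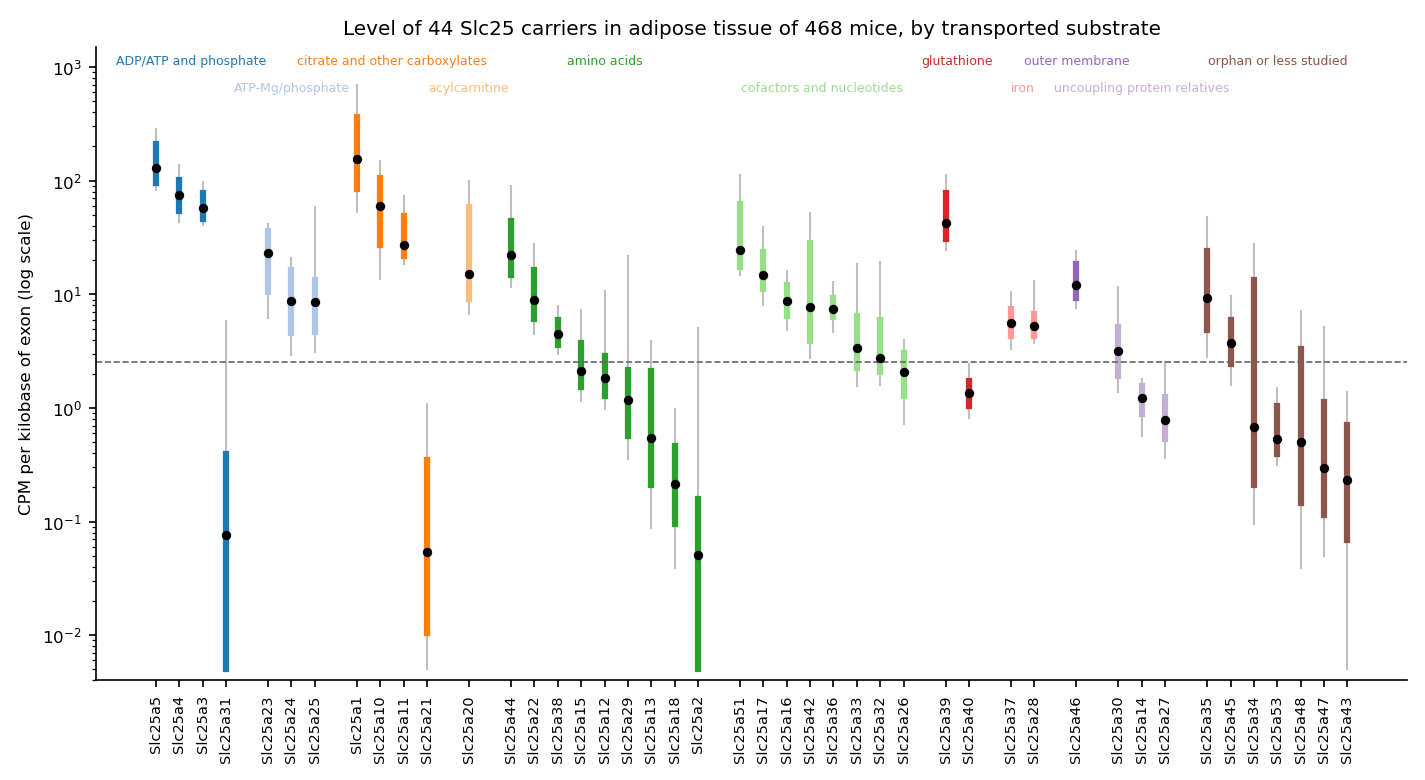
Level of 44 of the 45 carriers in CPM per kilobase of transcript (log axis), grouped by what they carry; the grey line spans the lowest to the highest library, the thick bar the 5th to the 95th percentile and the dot the median over all libraries. Slc25a1 and Slc25a5 have the highest medians (155.5 and 129.7), and the dashed line is the median of all genes (2.55).

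The spread of the carriers between mice was close to that of genes at large: the median SD of log2 CPM was 0.464 against 0.457 for all genes, and 23 of 44 carriers lay above that value. Slc25a34 (chr4:141618824-141623821, GRCm38), a carrier whose cargo is little studied, had the widest spread. It ran from 0.254 to 74.1 CPM (median 1.82, SD of log2 CPM 1.92), and its 95th percentile was 63.6 times its 5th. Slc25a48, linked to choline transport, ran from 0.132 to 24.01 CPM (SD 1.43). The pyrimidine nucleotide carrier Slc25a36 varied least, from 44.5 to 123.6 CPM (SD 0.18). The mitochondrial iron importer Slc25a28 and the glycine carrier Slc25a38 were next, with SDs of 0.20 and 0.22.

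Across the libraries without Y chromosome counts, most carriers rose with Ucp1. The slope, in log2 units of the carrier per SD of the log2 CPM of the marker over all libraries (4.02 log2 units for Ucp1, 0.52 for Adipoq and 0.90 for Adgre1), was positive for 27 and negative for 9 of the 44 carriers at an edgeR quasi-likelihood adjusted p under 0.05 (Benjamini-Hochberg over all genes). Among all genes the percentages called were 30.1 higher and 39.7 lower. Where Y chromosome counts were present, 14 carriers were higher and 1 lower, beside 10.7% and 8.49% of all genes. Over all libraries the counts were 27 and 11, beside 35.4% and 43.2%. Of the 44 carriers, 12 rose with Ucp1 in both sets, 0 fell in both, and 1, Slc25a43, fell in one and rose in the other, beside 4.97%, 5.25% and 4.93% of all genes. The median r with Ucp1 was 0.46 for the carriers and -0.046 for all genes without Y chromosome counts, and 0.061 and -0.013 with them.

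By role, the 9 carriers of cofactors and nucleotides were all higher with Ucp1 in the set without Y chromosome counts and 4 of them in the other set. Slc25a20 (chr9:108662088-108684641, GRCm38), which exchanges carnitine for acylcarnitine and so brings long-chain fatty acids into the matrix, rose steeply. It stood at 46.7 CPM in the library with the lowest Ucp1 of the set without Y chromosome counts (0.216 CPM), at 107.4 CPM in the library at the median (448.2 CPM) and at 397.7 CPM in the library with the highest (4514 CPM). Its slope was 1.03 ± 0.042 (SE, edgeR adjusted p = 1.89e-63), with r = 0.86 and rho = 0.93. In the libraries with Y chromosome counts the slope was 0.23 ± 0.046 (edgeR adjusted p = 9.55e-05, r = 0.29, rho = 0.24). There its levels of 56.9, 62.4 and 81.9 CPM in the libraries of lowest, median and highest Ucp1 lay closer together. Without the 2 libraries farthest from the median of Ucp1, r was 0.86 and 0.28.

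Slc25a34 took the same 3 libraries without Y chromosome counts from 1.09 through 6.10 to 57.5 CPM. Its slope was 1.75 ± 0.10 (SE, edgeR adjusted p = 5.73e-42, r = 0.86, rho = 0.89). In the set with Y chromosome counts the slope was 0.47 ± 0.096 (edgeR adjusted p = 1.22e-04, r = 0.34, rho = 0.37), and the values in the libraries of lowest, median and highest Ucp1 were 1.17, 0.527 and 2.93 CPM. Slc25a51, which brings NAD into the mitochondrion, had the highest r of the carriers in that set (r = 0.40, rho = 0.38, slope 0.19 ± 0.027, edgeR adjusted p = 1.09e-08), and without Y chromosome counts it had r = 0.77 and a slope of 0.63 ± 0.037. Slc25a11, the oxoglutarate/malate carrier of the malate-aspartate shuttle, reached r = 0.80 and 0.31 in the sets without and with Y chromosome counts. Every r of these 4 carriers had a permutation p of 1e-05, the smallest that 100000 resamples can give, and an adjusted p over all genes of at most 5.1e-04.

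Slc25a48 had one of the steepest slopes in one set and was not called in the other. Without Y chromosome counts its slope on Ucp1 was 1.34 ± 0.077 (SE, r = 0.80, rho = 0.81), and with them it was 0.033 ± 0.097 (edgeR adjusted p = 0.847, r = 0.035, rho = -0.0023). Slc25a42, a carrier of coenzyme A, had r = 0.80 and 0.17, and Slc25a35, a little-studied relative of Slc25a34, 0.78 and 0.10. The 9 carriers that fell with Ucp1 without Y chromosome counts included Slc25a24 and Slc25a45, and the 1 that fell with them was Slc25a47, a carrier of the liver. Slc25a24 (chr3:109123149-109168457, GRCm38), a calcium-dependent exchanger of ATP-Mg for phosphate, stood at 37.98 CPM in the library with the lowest Ucp1 and at 12.6 CPM in that with the highest. Its slope there was -0.48 ± 0.030 (edgeR adjusted p = 1.58e-36, r = -0.71, rho = -0.76), and in the other set it was 0.077 ± 0.053 (edgeR adjusted p = 0.320). Slc25a45, a carrier linked to methylated amino acids, had a slope of -0.30 ± 0.027 in the first set and 0.089 ± 0.043 in the second (edgeR adjusted p = 7.74e-23 and 0.131).

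**Figure D2:**
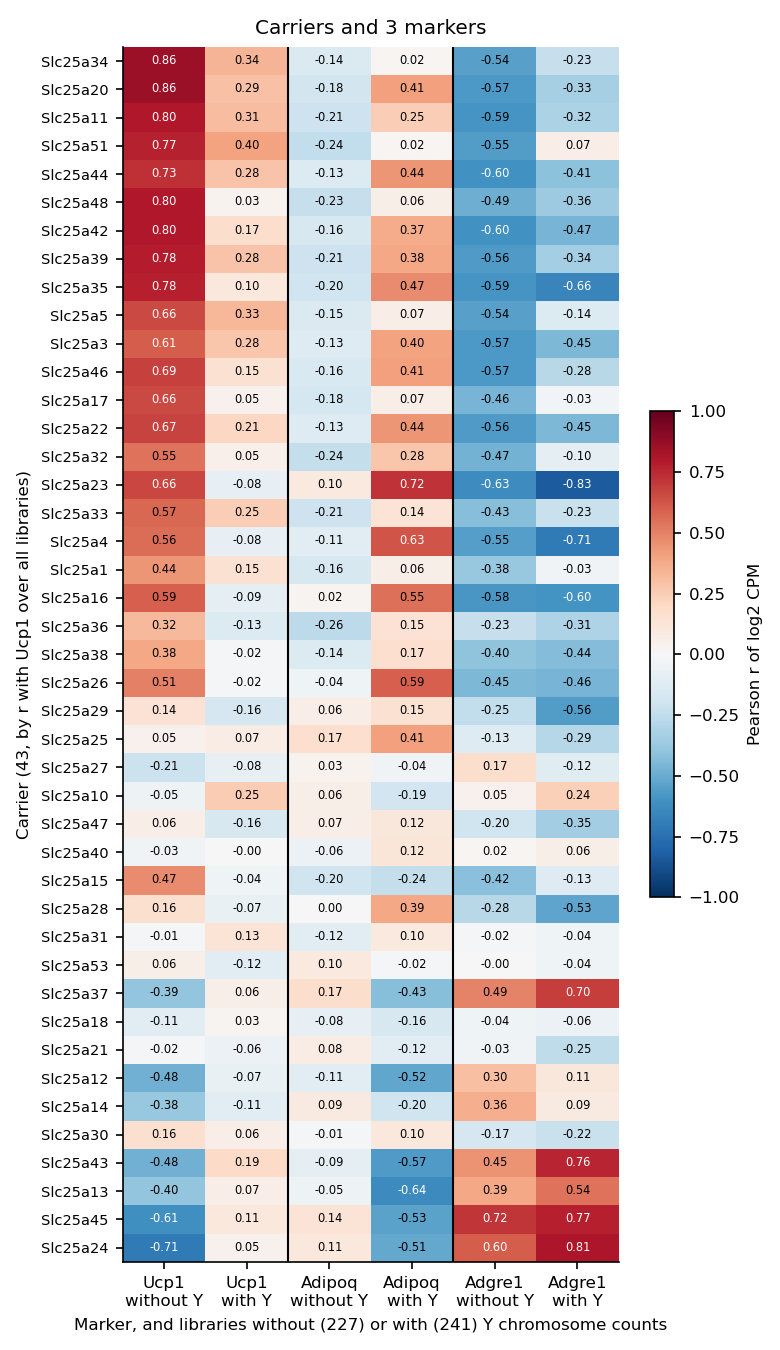
Heat map of Pearson's r between log2 CPM of 43 carriers (rows) and Ucp1, Adipoq and Adgre1 (columns), each in the sets without and with Y chromosome counts. With Ucp1, r reaches 0.86 for Slc25a20 and Slc25a34 in the first set and 0.40 for Slc25a51 in the second, and with Adgre1 Slc25a23 (-0.63 and -0.83) stands opposite Slc25a24 (0.60 and 0.81).

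The sets cover different ranges of Ucp1, so the relation was also taken in the range that both share, 0.216 to 85.7 CPM, a choice made after seeing the data. This left 59 of the libraries without Y chromosome counts (25.99%) and 94.6% of those with them. Slc25a34 then had r = 0.40 and 0.31, Slc25a20 0.35 and 0.26, and Slc25a11 0.39 and 0.25. Slc25a48 had 0.46 and 0.02, and its slope was the 1 called different between the sets in that range, beside 0 in the other direction (with minus without Y chromosome counts -1.01, edgeR adjusted p = 0.0130), where over the full range 34 were called (8 higher and 26 lower). At an unadjusted p under 0.05, 13 carriers differed in the shared range. Among all genes, 2.05% were called higher and 0.511% lower there, beside 26.2% and 25.4% over the full range. Slc25a24 had r = -0.13 and 0.06 in the shared range.

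Most carriers fell as the macrophage transcript Adgre1 rose, in both sets of libraries. Without Y chromosome counts 8 carriers were higher and 29 lower (31.7% and 31.9% of all genes), and with them 6 and 29 (29.7% and 43.7%). Over all libraries 9 were higher and 31 lower (34.4% and 43%). Of the 44, 25 fell in both sets and 5 rose in both (22.8% and 19.7% of all genes). The median r of the carriers was -0.41 and -0.23 in the sets without and with Y chromosome counts, against 0.009 and -0.053 for all genes. The phosphate carrier Slc25a3 and the ADP/ATP carriers Slc25a4 and Slc25a5 were lower in both sets. Slc25a4 had the lowest r of these 3, -0.55 without and -0.71 with Y chromosome counts. Adgre1 was itself related to the other markers: with Ucp1 r was -0.53 without and 0.19 with Y chromosome counts, and with Adipoq 0.04 and -0.59.

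The calcium-dependent ATP-Mg/phosphate carriers, which adjust the pool of adenine nucleotides in the matrix, went in opposite directions with Adgre1. Slc25a23 (chr17:57043711-57059863, GRCm38) stood at 110.5 CPM in the library with the lowest Adgre1 of the set with Y chromosome counts (14.8 CPM), at 97.2 CPM in the library at the median (62.4 CPM) and at 35.5 CPM in that with the highest (565.7 CPM). Slc25a24 stood at 10.01, 41.9 and 71.2 CPM in the same 3 libraries. The library of lowest Adgre1, mouse DO283, also held 210517 CPM of Svs5, a gene of the seminal vesicle, and without the 2 libraries farthest from the median of Adgre1 r was -0.82 for Slc25a23 and 0.80 for Slc25a24 in that set. The slope of Slc25a23 on Adgre1 was -0.41 ± 0.018 with Y chromosome counts (SE, edgeR adjusted p = 2.86e-58, r = -0.83, rho = -0.80) and -0.30 ± 0.027 without them (edgeR adjusted p = 7.44e-22, r = -0.63, rho = -0.60). Over all libraries its r with Adgre1, -0.82, was the lowest of the 18379 genes compared. The slope of Slc25a24 was 0.34 ± 0.016 and 0.42 ± 0.035 in the sets with and without Y chromosome counts (edgeR adjusted p = 3.15e-55 and 1.71e-24), with r = 0.81 and 0.60 and rho = 0.83 and 0.62. The 2 transcripts had r = -0.66 with each other without and -0.76 with Y chromosome counts. Slc25a23 exceeded Slc25a24 in 95.5% of the libraries, and their ratio ran from 0.473 to 19.6 (median 4.09). The third member, Slc25a25, had r = 0.10 and 0.38 with Slc25a23 in the 2 sets.

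The other 4 carriers that rose with Adgre1 in both sets were Slc25a45, Slc25a43, Slc25a37 and Slc25a13. Slc25a45 had r = 0.72 without and 0.77 with Y chromosome counts (slopes 0.34 ± 0.022 and 0.25 ± 0.013). In the set without them it stood at 5.32 CPM in the library of lowest Adgre1 (10.7 CPM), at 9.38 CPM at the median and at 24.04 CPM in the highest (656.5 CPM). Slc25a43, a carrier of unknown cargo at a median of only 0.412 CPM, had r = 0.45 and 0.76. Slc25a37, mitoferrin-1, which supplies iron for heme and iron-sulfur clusters, had r = 0.49 and 0.70, while its relative Slc25a28, mitoferrin-2, fell in both sets. Slc25a13, the aspartate/glutamate carrier citrin, had r = 0.39 and 0.54. In the library with the highest Adgre1 of the set with Y chromosome counts, Slc25a13 stood at 14.1 CPM, close to its highest value of 14.6. The r values of these carriers without the 2 libraries farthest from the median of Adgre1 were 0.67 and 0.76 for Slc25a45, 0.43 and 0.75 for Slc25a43, 0.49 and 0.68 for Slc25a37, and 0.35 and 0.52 for Slc25a13.

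**Figure D3:**
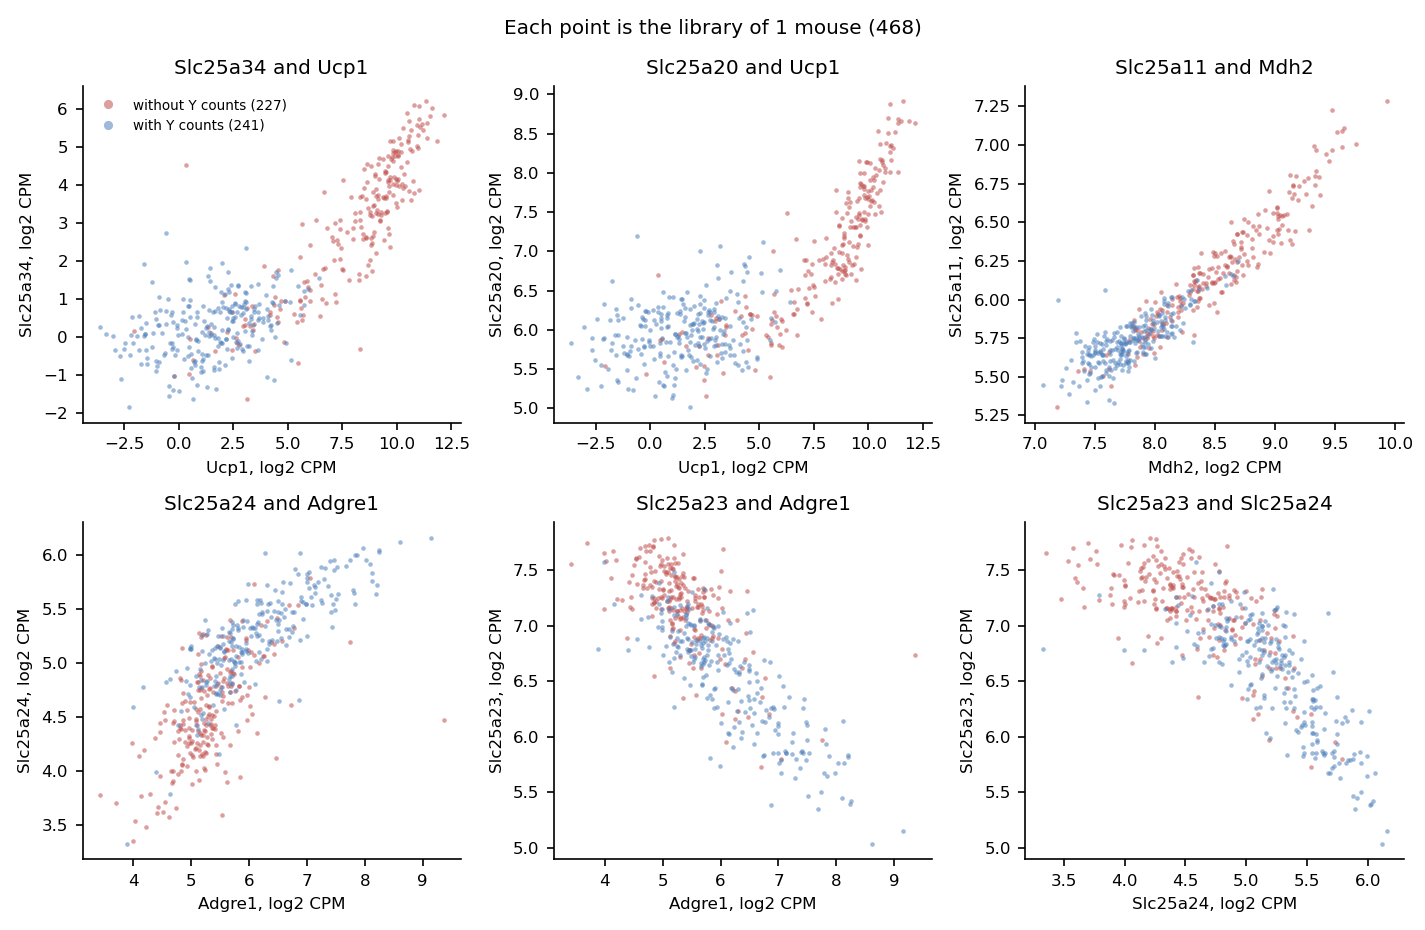
Log2 CPM of pairs of transcripts in each library, as 6 panels (Slc25a34 and Slc25a20 against Ucp1, Slc25a11 against Mdh2, Slc25a24 and Slc25a23 against Adgre1, and Slc25a23 against Slc25a24), with the sets without and with Y chromosome counts in different colours. The set with them lies at the low end of Ucp1 (0.0573 to 85.7 CPM), and Slc25a23 falls where Slc25a24 rises (r = -0.66 and -0.76).

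For 13 carriers the relation with Adipoq was called in opposite directions in the 2 sets, beside 6.97% of all genes. Over all libraries 26 carriers were higher and 11 lower (32.9% and 38.5% of all genes). Where Y chromosome counts were present 20 were higher and 12 lower (31% and 34.7%), whereas in those without them 2 were higher and 24 lower (11.7% and 21.7%), of which a permutation test of r called 2 and 11. The range of Adipoq was narrower without Y chromosome counts (1030 to 3818 CPM, against 500 to 3487 CPM with them). Of the 44 carriers, 5 were lower in both sets and 0 higher in both (10.3% and 6.49% of all genes). Slc25a20 was one of the 13, with a slope of -0.36 ± 0.087 without and 0.15 ± 0.021 with Y chromosome counts (edgeR adjusted p = 4.28e-04 and 5.07e-11). Slc25a23 had the highest r with Adipoq where Y chromosome counts were present (r = 0.72, rho = 0.70, slope 0.31 ± 0.020) and r = 0.099 where they were not (permutation p = 0.140). Slc25a4 had r = 0.63 and -0.11, and Slc25a26, the importer of S-adenosylmethionine, 0.59 and -0.04. At the other end, Slc25a13 had r = -0.64 with and -0.047 without Y chromosome counts. With the Y chromosome counts as a term in the model, 11 carriers were higher and 11 lower (27.6% and 36.2% of all genes).

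With the 3 markers in 1 model, 26 carriers were higher and 14 lower with Ucp1 (31.1% and 40.7% of all genes), and 7 and 34 with Adgre1 (28% and 44.5%). With Adipoq 5 were higher and 17 lower (21.9% and 33.7%). The joint slope on Adgre1 was -0.28 for Slc25a23, 0.32 for Slc25a24, 0.27 for Slc25a45, 0.47 for Slc25a43 and 0.17 for Slc25a37. The median slope over all libraries, marker by marker, was 0.12 for Ucp1 (-0.01 for all genes), 0.07 for Adipoq (-0.01) and -0.17 for Adgre1 (-0.02).

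The slopes themselves were compared between the sets with an interaction term. With Ucp1, 8 carriers had a more positive and 26 a more negative slope where Y chromosome counts were present (26.2% and 25.4% of all genes). With Adipoq the counts were 26 and 5 (24.5% and 18.9%), and with Adgre1 20 and 7 (21.8% and 29%). In the ranges of Adipoq and Adgre1 that both sets share, the counts were 25 and 6 (21.8% and 17.7% of all genes), and 24 and 6 (22.8% and 27.2%). Slc25a20, for example, fell with Adgre1 in both sets, with a slope of -0.61 without and -0.13 with Y chromosome counts. Slc25a27, a relative of the uncoupling proteins, was the 1 carrier that was called in opposite directions with Adgre1, beside 8.1% of all genes.

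**Figure D4:**
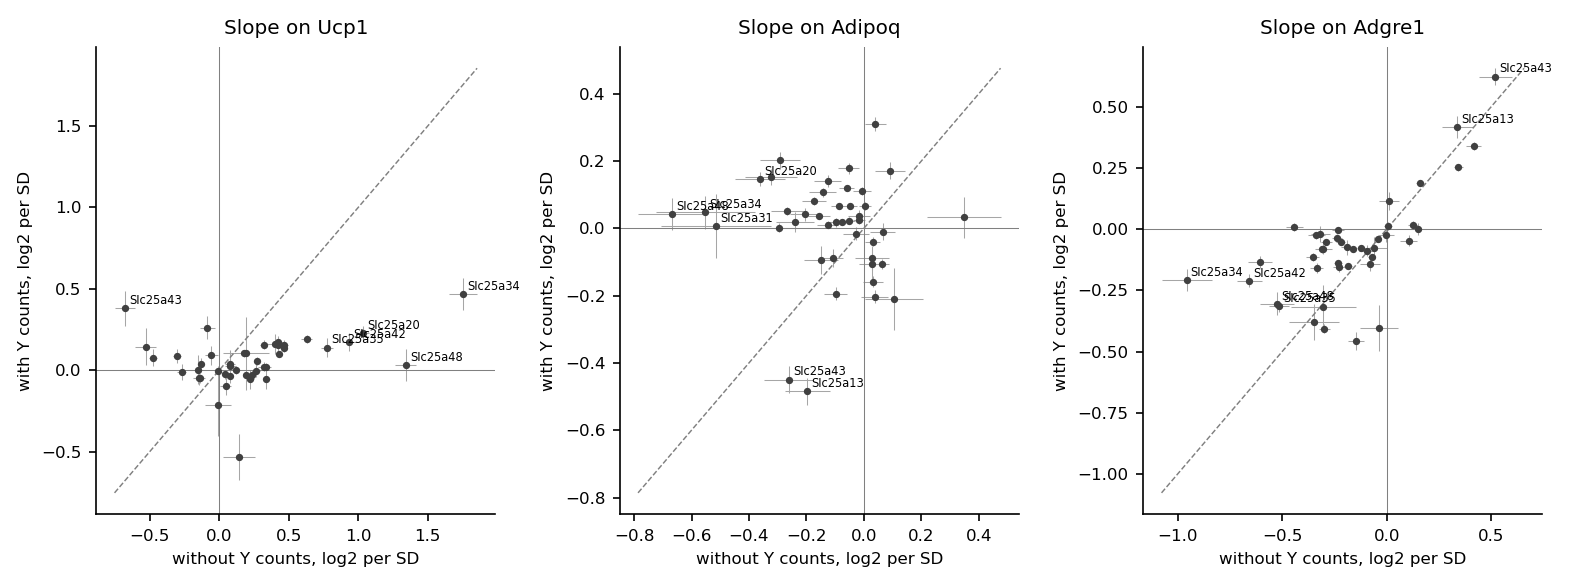
Slope of 43 carriers on Ucp1, Adipoq and Adgre1 in the sets without (x axis) and with (y axis) Y chromosome counts, in log2 units per SD of the marker, with bars of 1 SE and a dashed line where both are equal. With Ucp1 the carriers lie along the x axis (Slc25a34 at 1.75 and 0.47, Slc25a48 at 1.34 and 0.033), and with Adgre1 Slc25a23, Slc25a24 and Slc25a43 keep their direction in both sets.

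The carriers were put into blocks by their r over all libraries, each going to the marker with the highest r if that was at least 0.3. This gave 23 carriers to Ucp1, 2 to Adipoq (Slc25a23 and Slc25a25), 6 to Adgre1 (Slc25a24, Slc25a45, Slc25a43, Slc25a13, Slc25a14 and Slc25a37) and 13 to none. Beside the phosphate and ADP/ATP carriers Slc25a3, Slc25a4 and Slc25a5, the Ucp1 block held Slc25a1, Slc25a11 and Slc25a20, the glutamate carrier Slc25a22, Slc25a38, Slc25a44, Slc25a39 and Slc25a46. It also held all 9 carriers of cofactors and nucleotides, among them Slc25a16 and Slc25a42, the peroxisomal carrier Slc25a17, Slc25a26, Slc25a32, Slc25a33, Slc25a36 and Slc25a51. The little-studied Slc25a34, Slc25a35 and Slc25a48 completed it. Where Y chromosome counts were present, 12 of these 23 were called higher with Ucp1 and 11 were not called. In that set 10.7% of all genes were called higher. Slopes of the block on Ucp1 ran from -0.037 to 0.47 there. In no block stood Slc25a10, Slc25a12, Slc25a15, Slc25a18, Slc25a21, Slc25a27, Slc25a28, Slc25a29, Slc25a30, Slc25a31, Slc25a40, Slc25a47 and Slc25a53. The rule took no account of negative r, so a place in no block does not mean no relation. Among these carriers, Slc25a29 had r = -0.51 and Slc25a28 r = -0.35 with Adgre1. Slc25a30 had r = -0.46 with Ucp1 and Slc25a12 r = -0.40 with Adipoq. Just inside the limit stood Slc25a14, a relative of the uncoupling proteins (r = 0.30 with Adgre1), and Slc25a25 (r = 0.34 with Adipoq), and just outside it Slc25a12, the aspartate/glutamate carrier aralar (r = 0.25 with Adgre1), and Slc25a28 (r = 0.21 with Adipoq). Slc25a23 stood between 2 blocks, with r = 0.62 with Adipoq and 0.60 with Ucp1, and without Y chromosome counts neither it nor Slc25a25 was called with Adipoq (edgeR adjusted p = 0.448 and 0.183). Because pooled r values also carry the difference in level between the sets, pairs of carriers were examined within each set. Among the 946 pairs of carriers over all libraries, the median r was 0.068 against -0.001 for pairs of all genes, with 26.3% of the pairs above 0.5 and 9.62% below -0.5. The shares were 26% and 8.56% without and 7.29% and 2.75% with Y chromosome counts. No such share over pairs of all genes stands beside them, so they have no background here. After regression on the 3 markers, 56 of the pairs above 0.5 were still above it and 2 of those below -0.5 still below it.

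Within the Ucp1 block the median r between carriers was 0.67 without and 0.32 with Y chromosome counts. Within the Adgre1 block it was 0.43 and 0.53, and between these 2 blocks -0.49 and -0.27. Blocks were drawn from these same libraries, so these medians partly follow from the grouping and are no test of it. The closest pair without Y chromosome counts was Slc25a11 with Slc25a39, a glutathione carrier (r = 0.93 there, 0.71 with them, 0.76 after regression on the markers). With Y chromosome counts it was Slc25a3 with Slc25a11 (r = 0.84 without and 0.78 with them). Slc25a5 and Slc25a3, which serve ATP synthesis together, had r = 0.88 and 0.77 (0.77 after regression). Slc25a20 and Slc25a51 had 0.91 and 0.49 (0.71 after regression). The pairs lost below -0.5 included Slc25a23 with Slc25a24, whose r after regression was -0.30. The 2 pairs that stayed below it were Slc25a12 with Slc25a46, which sits in the outer membrane, at -0.58, and Slc25a12 with Slc25a16, a carrier tied to coenzyme A, at -0.50.

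**Figure D5:**
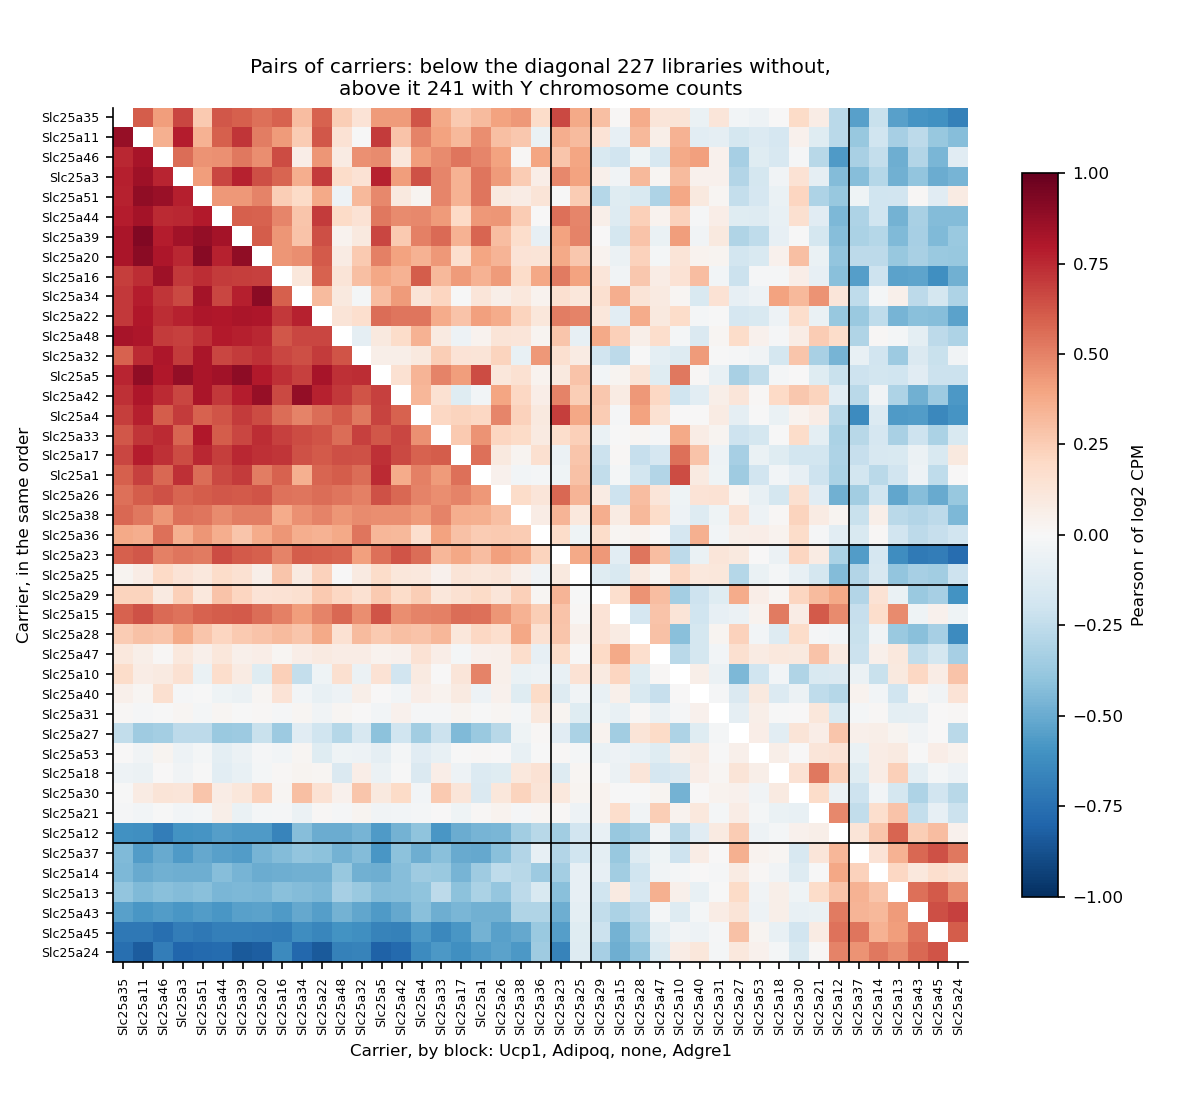
Pearson's r between log2 CPM of every pair of 43 carriers, with the set without Y chromosome counts below the diagonal and the set with them above it, ordered by block (Ucp1, Adipoq, none, Adgre1). The Ucp1 block is positive throughout much of its area (median r over all its carriers 0.67 below and 0.32 above the diagonal), and the strip where it meets the Adgre1 block is negative (median -0.49 and -0.27). Blocks were drawn from r with the markers in these same libraries, so this pattern partly follows from the grouping.

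Carriers that went against the rest were those whose median r with the other 43 was below 0. The median r over pairs of all genes was -0.001, so a value just below 0 does not set a carrier apart. There were 14 such carriers over all libraries, 12 without and 13 with Y chromosome counts, and 11 in all 3. Slc25a24 had the lowest median r (-0.54 over all libraries, -0.56 without and -0.22 with Y chromosome counts), followed by Slc25a45 (-0.53, -0.51 and -0.23) and Slc25a43 (-0.45, -0.42 and -0.24). Slc25a13, Slc25a14, Slc25a12 and Slc25a37 were next, between -0.44 and -0.28 over all libraries. The other 7, Slc25a21, Slc25a30, Slc25a18, Slc25a53, Slc25a27, Slc25a31 and Slc25a40, had a median r of -0.17 or nearer to 0. Slc25a30, the kidney mitochondrial carrier related to the uncoupling proteins, was below 0 over all libraries (-0.16) but above it within each set (0.043 and 0.074). Slc25a40 (-0.0041, 0.0033 without and -0.015 with Y chromosome counts) and Slc25a31 (-0.024, -0.0050 and 0.0022) lay close to 0 and differed in sign between the sets.

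Close relatives followed each other to different degrees. The ADP/ATP carriers Slc25a4 and Slc25a5 had r = 0.68 without and 0.34 with Y chromosome counts, Slc25a34 and Slc25a35 had 0.71 and 0.31, and the coenzyme A carriers Slc25a16 and Slc25a42 had 0.66 and 0.35. The aspartate/glutamate carriers Slc25a12 and Slc25a13 had 0.29 and 0.58. Some other relatives were near 0 or negative. The mitoferrins Slc25a28 and Slc25a37 had -0.13 and -0.22, Slc25a45 and Slc25a48 -0.60 and -0.26, and the glutathione carriers Slc25a39 and Slc25a40 -0.03 over all libraries. The pyrimidine nucleotide carriers Slc25a33 and Slc25a36 differed between the sets, with 0.40 without and 0.09 with Y chromosome counts.

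Carriers were also set beside partner genes, as 27 pairs. Most partners act on the cargo of the carrier, but Opa1 and Pex19 were chosen for mitochondrial shape and for the peroxisome. Slc25a11 and Mdh2, the malate dehydrogenase of the matrix, were the closest pair over all libraries and in the set without Y chromosome counts, with r = 0.95, rho = 0.96 without and r = 0.77, rho = 0.74 with Y chromosome counts, and Mdh2 lay at percentile 99.9 among the r of all genes with Slc25a11. Slc25a20 and Cpt2, which rebuilds acyl-CoA from the acylcarnitine that Slc25a20 delivers, had r = 0.94, rho = 0.94 and r = 0.76, rho = 0.71. Cpt1b, which makes that acylcarnitine in muscle and brown fat, had r = 0.92, rho = 0.95 and r = 0.38, rho = 0.32. Each of these 6 values of r had a permutation p of 1e-05. The phosphate and ADP/ATP carriers followed Atp5b, a subunit of the ATP synthase they feed: Slc25a3 had r = 0.84 and 0.89, the highest of the 27 pairs where Y chromosome counts were present, Slc25a5 0.86 and 0.64, and Slc25a4 0.73 and 0.69. Slc25a46 and Opa1, which shapes the inner membrane, had r = 0.90 and 0.73.

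The citrate carrier Slc25a1 followed the enzymes of fatty acid synthesis. It had r = 0.82, rho = 0.82 with Fasn, the fatty acid synthase, without and r = 0.68, rho = 0.67 with Y chromosome counts, and r = 0.82 and 0.60 with Acly, which splits the exported citrate. The dicarboxylate carrier Slc25a10 followed Fasn less closely (r = 0.29 and 0.58). Slc25a44, which carries branched-chain amino acids, had r = 0.82 and 0.65 with Bckdha, a subunit of the enzyme complex that oxidizes them, and 0.41 and 0.58 with Bcat2. Some pairs had a high r in one set and an r near 0 in the other. Slc25a51 had r = 0.82, rho = 0.82 with the mitochondrial NAD kinase Nadk2 without and r = 0.051, rho = -0.0072 with Y chromosome counts, and Slc25a42 had r = 0.66, rho = 0.69 and r = 0.034, rho = 0.040 with Acsl1, which couples fatty acids to coenzyme A (permutation p in the set with Y chromosome counts 0.425 and 0.595). Without Y chromosome counts Nadk2 lay at percentile 97.8 and Acsl1 at 94.9. After regression on the markers over all libraries, r was 0.46 and 0.12.

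Other pairs were negative, weak or unlike between the sets. Slc25a37 and Fech, the enzyme that inserts iron into heme, had r = -0.35, rho = -0.42 and r = -0.43, rho = -0.41, whereas Slc25a28 and Fech had r = 0.22 and 0.17. Slc25a32, the folate and FAD carrier, had r = -0.32 and -0.30 with Mthfd2, an enzyme of mitochondrial folate metabolism, and 0.14 and -0.36 with Shmt2. Slc25a15, the ornithine carrier, had r = -0.41 and 0.21 with the ornithine aminotransferase Oat. Slc25a13 had r = 0.14 and 0.53 with Got2, which makes its aspartate, and Slc25a12 0.27 and 0.70. Among the r of all genes, Got2 lay at percentiles 70.5 and 95.3 for Slc25a13 and 79.1 and 99.7 for Slc25a12. Fech lay at percentiles 83.9 and 72.5 for Slc25a28 and 10.7 and 4.09 for Slc25a37. Mthfd2 lay at percentiles 20.6 and 5.74 for Slc25a32.

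Among 23 genes of other mitochondrial transporters and relatives outside the Slc25a symbols, 15 were higher and 4 lower with Ucp1, 12 and 6 with Adipoq, and 8 and 14 with Adgre1 over all libraries. Among all genes the percentages called were 35.4 and 43.2, 32.9 and 38.5, and 34.4 and 43 in the same order. The counts of these transporters without Y chromosome counts were 15 and 5, 2 and 15, and 4 and 14, and with them 11 and 0, 11 and 7, and 9 and 11. Percentages of all genes in each set are given above with each marker. Ucp2 and Ucp3, which belong to the same family by structure, took opposite sides. Ucp2 had r = 0.53 without and 0.71 with Y chromosome counts with Adgre1, next to the values of Slc25a24, and Ucp3 had -0.57 and -0.57. Mpc1, a subunit of the pyruvate carrier, had r = 0.76 and 0.14 with Ucp1, close to the carriers of the Ucp1 block.

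Some carriers had their highest value in 1 mouse in which genes of another tissue or an early response gene were also high. These mice were singled out after their values were seen. In mouse DO180, Slc25a31 stood at 12.4 CPM (next highest 3.12) and Slc25a2 at 6.89 (next 0.591), and the germ cell genes Ddx4 and Tdrd6 at 134.96 and 243.3 CPM. In mouse DO283, Slc25a12 stood at 78.6 CPM (next 39.8) and Slc25a29, a carrier of basic amino acids, at 57.1 (next 13.04), with the seminal vesicle gene Svs5 at 210517 CPM. In mouse DO379, Slc25a21 reached 5.28 and Slc25a29 13.04 CPM, with the epididymis genes Adam28 at 1080 and Rnase10 at 1709 CPM. In mouse DO349, Slc25a25 stood at 458.5 CPM (next 176.4) and Slc25a32 at 117.8 (next 63.2), beside the early response gene Nr4a3 at 651.3 CPM (next 97.1), while Fos, another early response gene, stood at 13.004 CPM, below its median of 16.3. The inner promoter window of Slc25a25 shown above holds a TGACGTCA, as do windows of 2.03% of all genes. Any link between that motif and the value in mouse DO349 was not tested. The part of these genes in the carrier values was not tested. Without the 4 mice, 28 carriers were higher and 11 lower with Ucp1, 29 and 11 with Adipoq, and 8 and 31 with Adgre1, beside 36.2% and 42.7%, 34.4% and 36.5%, and 35.6% and 41.9% of all genes. Slc25a47 followed the summed liver markers over all libraries (r = 0.71, rho = 0.64), and the part of these markers in its other relations was not tested.

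Along the mouse number, with library number in the same model, 6 carriers were higher and 8 lower (11.7% and 12% of all genes). Slc25a34 had the steepest of these slopes among the 8 that fell, -0.20 log2 units per 100 numbers. Carriers that rose included Slc25a45, Slc25a15 and Slc25a13, and carriers that fell included Slc25a51, Slc25a33 and Slc25a36. Mouse numbers came in runs of libraries with or without Y chromosome counts. With Y chromosome counts as a term, 4 carriers were higher and 2 lower (5.01% and 8.71% of all genes). Whether the carriers named here kept their slopes with that term is not given.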

How the data were processed

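Adipose RNA of 468 Diversity Outbred mice was sequenced, with 1 library per mouse, and 241 libraries had counts in Y chromosome genes and 227 had none. The authors deposited expected counts per gene, estimated by expectation maximization from reads aligned to the transcriptomes of the founder strains; 66.8% of the values were whole within 1e-06. They also deposited log2 values after variance stabilization in DESeq2 (VST). The submitters' processing notes name GRCm38, and gene identifiers were matched to GENCODE M21. For the counting tools, versions and strand settings were not given in the sources used here. Library totals of 35.3 M to 138 M (median 82.0 M) set the precision.

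Expected counts were rounded to whole numbers, genes reaching 10 counts in 50% or more of the libraries were kept, and libraries were scaled by TMM (0.578 to 1.36) in edgeR 4.0.16 (R 4.3.3). CPM were taken on the log2 scale with a prior count of 2. Each marker (log2 CPM) entered a quasi-likelihood fit across all genes alone, jointly with the others, or with an interaction with Y chromosome counts, and p-values were adjusted by Benjamini-Hochberg over all genes at a threshold of 0.05. Pearson's r and Spearman's rho had two-sided permutation tests with 100000 resamples (smallest p 1e-05), computed with numpy 2.4.6 and scipy 1.17.1. Alternatives used DESeq2 1.42.0, limma 3.58.1, no filter, counts capped at the 99th percentile of a gene, the VST values and subsets of libraries; the subsets by Y chromosome counts, the shared marker ranges and the omission of 4 mice were added after seeing the data. Carriers were named by rule. Per marker these were the 5 with the highest and the 5 with the lowest r. Those with a median r with the others below 0 were also named. So were the 5 highest and 5 lowest per kilobase, and the 3 widest and 3 narrowest in spread. Carriers with partner genes and those whose slope differed between the sets were named too. The 4 mice and their genes were chosen after their values were seen. Scripts were tested on simulated data. The carriers, lists and markers were chosen with earlier results of these data known. P-values measure only the spread between these libraries. The values of 1 carrier, which the counts include, are not reported here. No sample column was left unused (0 columns).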

Additional observations from a re-analysis of the deposited data

Results flagged for a closer look

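The slope of a carrier on a marker differed between the libraries with and those without Y chromosome counts in the 89 cases given here at an edgeR adjusted p under 0.05 for the interaction term, and each difference is given as the slope with minus the slope without these counts, in log2 units per SD of the marker. Among the carriers of ADP, ATP and phosphate, the difference was -0.08 (Ucp1), 0.11 (Adipoq) and 0.08 (Adgre1) for Slc25a3, -0.22 (Ucp1) and 0.18 (Adipoq) for Slc25a4, -0.16 (Ucp1), 0.12 (Adipoq) and 0.20 (Adgre1) for Slc25a5 and 0.52 (Adipoq) for Slc25a31. Among the ATP-Mg/phosphate carriers, it was -0.39 (Ucp1), 0.27 (Adipoq) and -0.11 (Adgre1) for Slc25a23 and 0.56 (Ucp1) and -0.24 (Adipoq) for Slc25a24. Among carriers of carboxylates and acylcarnitine, it was -0.24 (Ucp1), 0.26 (Adipoq) and 0.30 (Adgre1) for Slc25a1, 0.35 (Ucp1) for Slc25a10, -0.33 (Ucp1), 0.19 (Adipoq) and 0.24 (Adgre1) for Slc25a11, -0.37 (Adgre1) for Slc25a21 and -0.80 (Ucp1), 0.51 (Adipoq) and 0.47 (Adgre1) for Slc25a20. Carriers of amino acids differed by 0.26 (Ucp1) and -0.15 (Adgre1) for Slc25a12, 0.67 (Ucp1) and -0.29 (Adipoq) for Slc25a13, -0.28 (Ucp1) and 0.12 (Adgre1) for Slc25a15, -0.27 (Ucp1), 0.27 (Adipoq) and 0.18 (Adgre1) for Slc25a22, -0.31 (Adgre1) for Slc25a29, -0.12 (Ucp1) and 0.08 (Adipoq) for Slc25a38 and -0.31 (Ucp1), 0.25 (Adipoq) and 0.24 (Adgre1) for Slc25a44. For carriers of coenzyme A and related cofactors, the difference came to -0.26 (Ucp1), 0.12 (Adipoq) and 0.10 (Adgre1) for Slc25a16, -0.76 (Ucp1), 0.48 (Adipoq) and 0.45 (Adgre1) for Slc25a42 and -0.32 (Ucp1), 0.14 (Adipoq) and 0.23 (Adgre1) for Slc25a17. For the carriers of NAD, folate, methyl donors and nucleotides, the values were -0.44 (Ucp1), 0.30 (Adipoq) and 0.45 (Adgre1) for Slc25a51, -0.30 (Ucp1), 0.32 (Adipoq) and 0.31 (Adgre1) for Slc25a32, -0.27 (Ucp1) and 0.23 (Adipoq) for Slc25a26, -0.25 (Ucp1), 0.25 (Adipoq) and 0.22 (Adgre1) for Slc25a33 and -0.11 (Ucp1) and 0.09 (Adipoq) for Slc25a36. In the glutathione and iron carriers, slopes differed by -0.33 (Ucp1), 0.25 (Adipoq) and 0.23 (Adgre1) for Slc25a39, 0.06 (Adipoq) for Slc25a28 and 0.17 (Ucp1) and -0.17 (Adipoq) for Slc25a37. For Slc25a46 of the outer membrane and the relatives of the uncoupling proteins, the differences were -0.22 (Ucp1), 0.15 (Adipoq) and 0.17 (Adgre1) for Slc25a46, 0.09 (Ucp1), -0.07 (Adipoq) and -0.11 (Adgre1) for Slc25a14 and -0.15 (Adgre1) for Slc25a27. Carriers of little-studied cargo differed by -1.28 (Ucp1), 0.60 (Adipoq) and 0.74 (Adgre1) for Slc25a34, -0.64 (Ucp1), 0.49 (Adipoq) and 0.20 (Adgre1) for Slc25a35, 1.06 (Ucp1) for Slc25a43, 0.39 (Ucp1), -0.19 (Adipoq) and -0.09 (Adgre1) for Slc25a45, -0.68 (Ucp1) for Slc25a47 and -1.31 (Ucp1), 0.71 (Adipoq) and 0.22 (Adgre1) for Slc25a48. In the range of Ucp1 that both sets share, Slc25a48 was the 1 carrier whose slope on Ucp1 was called different (-1.01, edgeR adjusted p = 0.0130).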

How the results depend on the processing

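No paired analysis was possible because all libraries form 1 group. Over the alternatives run (another normalization, test, filter or transformation, added covariates, capped counts, omitted libraries, ranked markers), the counts of carriers stayed within 1.5 times and the slopes of the carriers with the 5 highest and 5 lowest r per marker kept their direction and their side of the threshold, except as follows. In the joint fit in limma, 10 carriers were lower with Adipoq. With a term for Y chromosome counts, 11 carriers were higher with Adipoq, 2 were lower with mouse number, and the slope of Slc25a30 on Ucp1 turned from -0.22 to 0.063. In the libraries with Y chromosome counts alone, 14 carriers were higher and 1 lower with Ucp1, and the slopes on Ucp1 of Slc25a24 (0.077), Slc25a45 (0.089), Slc25a13 (0.14), Slc25a43 (0.38) and Slc25a30 (0.035) were positive. In those without them, the slope of Slc25a30 on Ucp1 was 0.079, and with Adipoq 2 carriers were higher and 24 lower, with slopes of 0.037 for Slc25a24, 0.032 for Slc25a45, -0.047 for Slc25a3, -0.0060 for Slc25a16, -0.053 for Slc25a26, -0.060 for Slc25a4 and 0.040 for Slc25a23. Of the other carriers, 13 were called in opposite directions with Adipoq in the 2 sets (Slc25a20 0.23 over all libraries and -0.36 without Y chromosome counts), and Slc25a48 was not called with Ucp1 where these counts were present (0.033). In the range of Ucp1 that both sets share, 0 interaction slopes were higher and 1 lower by edgeR, with 13 at an unadjusted p under 0.05. The cause was not tested. Slc25a31, Slc25a21, Slc25a18 and Slc25a43, at medians under 0.5 CPM, rest on few counts.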

Other observations

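Relatives and other transporters outside the Slc25a symbols varied with the same markers. Mtch2, a relative of the carriers in the outer membrane, had r = 0.78 with Ucp1 without and 0.17 with Y chromosome counts, and Mtch1 had 0.39 and -0.030. Mcub, a subunit that dampens the mitochondrial calcium uniporter, had r = 0.70 and 0.77 with Adgre1, near the values of the calcium-dependent carrier Slc25a24 (0.60 and 0.81). Ucp3 had r = 0.77 and 0.074 with Ucp1.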
